A study of Mus musculus with 8 samples.

Results

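The mouse genes examined here encode the cytochrome P450 enzymes of families 1, 2 and 3. They were taken as every protein-coding entry of the expression table whose symbol starts with Cyp1, Cyp2 or Cyp3 followed by a subfamily letter and a number. This gave 58 of 22196 protein-coding genes, among 43630 entries in all. The livers came from 8 male C57BL/6 mice aged 7 to 8 weeks, with no engineered allele named in the labels, and 1 RNA-seq library was made per mouse. A single tail vein injection of 5 µg antagomiR-control (4 mice) or antagomiR-122 (4 mice) was followed 48 h later by CL316243 at 1 mg/kg under the skin in both groups, and the livers were taken 2 h after that. An antagomiR is a chemically modified antisense oligonucleotide that binds a microRNA, here miR-122, which hepatocytes hold in large amounts, and CL316243 stimulates the β3-adrenergic receptor of fat cells. Both groups had received the agonist, and mice without it were not analysed here. These libraries do not measure the mature microRNA, so how far it was inhibited is not known from them. Mice are called by group and by the replicate number in the sample titles, which names a mouse and orders nothing.

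P450s of families 1, 2 and 3 are haem enzymes of the endoplasmic reticulum that insert oxygen into drugs, toxins, steroids and fatty acids, with electrons passed on by P450 reductase and cytochrome b5. Hepatocytes around the central vein hold most of them. Many are switched on by sensors of foreign compounds: the aryl hydrocarbon receptor acts on Cyp1 genes, the receptor CAR above all on Cyp2b and Cyp2c genes, and the receptor PXR on Cyp3a genes. Several others differ between male and female mouse liver because growth hormone is released in a different rhythm in the sexes.

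The genes lie mostly in clusters of near relatives. In GRCm38 coordinates, all 15 Cyp2c genes lie on chromosome 19 between 39007019 and 44029247, and the 8 Cyp2d genes lie on chromosome 15 between 82370528 and 82794245. The 4 Cyp2a and 5 Cyp2b genes share a stretch of chromosome 7, from 26307190 to 27036807 and from 25897620 to 26772630. The 8 Cyp2j genes lie on chromosome 4 and the 7 Cyp3a genes on chromosome 5. Such copies share exon sequence, so reads can fit more than 1 gene. Of the 36 genes that entered the test, 20 had over 10% of the 50-base stretches of their GENCODE M21 transcripts in common with another gene, and 6 had none in common. How the authors' counting divided such reads, and how long the reads were, is not stated in the labels.

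Levels are the authors' deposited FPKM, that is, fragments counted per kilobase of a gene's transcript after scaling for the size of each library. Relative depth, read from the spacing of the low values, was 0.890 to 1.11 in 7 libraries and 2.35 in antagomiR-122 mouse 4. That last library also stood apart on the first principal component of all tested genes, at 38.2 against -13.6 to 0.809 in the others, and listed at 0 a set of 15 genes that exceeded 5 FPKM in the other 7 libraries. None of those was a P450 of these families. Hepatocyte markers (8 of 8 detected) summed to 13020 to 16242 FPKM in control livers and to 13020 to 14820 with antagomiR-122. Markers of pericentral hepatocytes summed to 1108 to 1395 and 1184 to 1548, and those of periportal hepatocytes to 2779 to 4156 and 2894 to 4320. Markers of kidney (0.0594 to 0.387) were near 0, and those of adipocytes (0.929 to 1.85) were low. Most of the adipocyte sum was Adrb3, the gene of the β3-adrenergic receptor, at 0.916 to 1.64 FPKM. Its mean over the 8 mice, 1.24 FPKM, passed the filter, while Adipoq was at 0 to 0.451 FPKM. Acinar pancreas markers summed to 6.46 to 10.1 FPKM in controls and 5.80 to 10.5 with antagomiR-122, nearly all of it Cela1, with Cpa1 listed at 0. Cholangiocyte markers summed to 30.4 to 38.7 FPKM in controls and 25.97 to 30.5 with antagomiR-122, stellate cell markers to 92.4 to 110.0 and 81.7 to 108, and Kupffer cell markers to 198 to 270 and 202 to 252. Endothelial markers summed to 97.99 to 104 and 93.5 to 111, and neutrophil markers to 8.01 to 23.4 and 5.69 to 11.8. None of the tested markers passed limma's threshold, but 5 were at an unadjusted p under 0.05, as were 7.44% of all genes. They were Asgr1 of hepatocytes (log2 fold change 0.24), Spp1 of cholangiocytes (-0.27) and Lyve1 of the endothelium (-0.37). Lrat of stellate cells (-0.37) and S100a9 of neutrophils (-0.66) were the others. Each was 1 gene of its list: 8 hepatocyte, 2 cholangiocyte, 6 endothelial, 6 stellate and 2 neutrophil markers were tested. Of the hepatocyte markers 3 were higher and 5 lower. Of the endothelial and the stellate markers 1 each was higher (Clec4g and Des) and 5 lower. Among cholangiocyte markers under the filter, Krt7 and Krt19 had higher means and Epcam a lower one. Epcam was at 0.361 to 0.587 FPKM with antagomiR-122, below every control (0.597 to 0.735 FPKM). In the tested markers Spp1 and Lrat every antagomiR-122 mouse was also below every control, and groups were apart in 4.52% of all genes tested. The authors' deposited table, which calls 1.42% of the genes it tests, calls 1 of the markers significant, Sox9 of cholangiocytes, as lower (q = 0.0343). The part of the markers in the results was not tested. Since whole livers were sequenced, fewer cells of a type and less RNA per cell cannot be told apart.

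Together the 58 genes made up 1.42% to 1.96% of the summed FPKM of a library. Cyp2e1, Cyp3a11, Cyp2c29, Cyp2d9 and Cyp2f2 were the highest in that order by their mean over the 8 mice, and supplied 64.4% of the FPKM of all 58, while the 10 highest supplied 80.5%. By subfamily, Cyp2e1 alone held 26.4% of the sum, the Cyp2c genes 22.2%, the Cyp3a genes 20.8%, the Cyp2d genes 13.4%, the Cyp2a genes 5.16% and the Cyp2b genes 0.124%. A mean of at least 1 FPKM was reached by 36 genes. Of the other 22, 17 were above 0 in some library and 5 (Cyp2b23, Cyp2c66, Cyp2j12, Cyp2j7 and Cyp2w1) were listed at 0 in all 8. The lowest tested mean was 1.11 FPKM, and the highest mean under the filter was 0.425 FPKM.

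**Figure D1:**
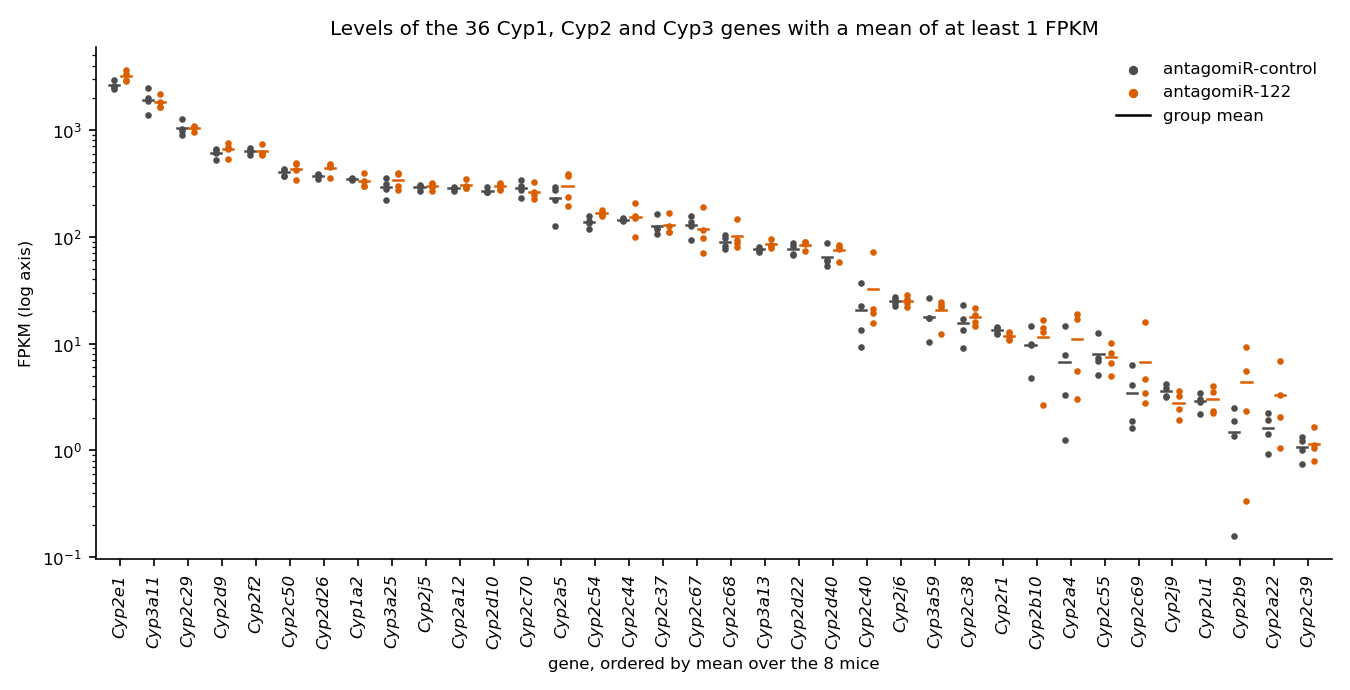
FPKM on a log axis of the 36 tested Cyp1, Cyp2 and Cyp3 genes, ordered by their mean, with 1 point per mouse (4 antagomiR-control in grey, 4 antagomiR-122 in orange) and a dash at each group mean. Levels run from about the mean of Cyp2e1, 2603 and 3191 FPKM, to that of Cyp2c39, 1.08 and 1.15 FPKM, and the points scatter most towards the right, where Cyp2c40, Cyp2a4, Cyp2c69, Cyp2b9 and Cyp2a22 lie.

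No gene of these families differed between the groups past the threshold, and in each of the 36 tested genes the values of the 4 control mice overlapped those of the 4 antagomiR-122 mice. The differences leaned upwards: 28 genes had a higher and 8 a lower mean log2 value with antagomiR-122, that is 77.8% higher against 53.0% (5901 of 11131) over all genes tested. The median log2 fold change was 0.11 (0.061 without control mouse 4), against 0.010 over all genes tested, and 30 of the 36 lay within 0.3 of 0. Fold changes were computed after adding 1 to each FPKM and taking log2, so those of low genes come out too small, and p-values are two-sided from limma with Benjamini-Hochberg adjustment over all 11131 genes. After adjustment 0 of the 36 passed 0.05 (smallest adjusted p = 0.561), and 0% of all genes did (smallest adjusted p = 0.251). At an unadjusted p under 0.05 there were 2, Cyp2c54 and Cyp2e1, both higher. That is 5.56% of the 36, against 7.44% of all genes in either direction and 3.76% of all genes in the higher direction. Groups that do not overlap were found in 4.52% of all genes tested and in 0 of the 36.

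These counts moved when single mice were left out. Without control mouse 4 only Cyp2d40 had an unadjusted limma p under 0.05, and without antagomiR-122 mouse 2 there were 5 such genes (Cyp2a22, Cyp2b9, Cyp2c54, Cyp2e1 and Cyp2j9), with 8.12% and 8.77% of all genes in those fits. Non-overlapping groups appeared in 3 genes without control mouse 3 (Cyp2c54, Cyp2e1 and Cyp3a13) and in 3 without antagomiR-122 mouse 4 (Cyp2c54, Cyp2d9 and Cyp3a13), against 7.60% and 8.26% of all genes. There was 1 such gene without control mouse 4 (Cyp2d10), against 9.29% of all genes. Without antagomiR-122 mouse 1 there were 2 (Cyp2d26 and Cyp2e1), against 8.23%, and without antagomiR-122 mouse 3 there was 1 (Cyp1a2), against 6.41%. In each of these fits 0 genes passed the adjusted threshold.

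**Figure D2:**
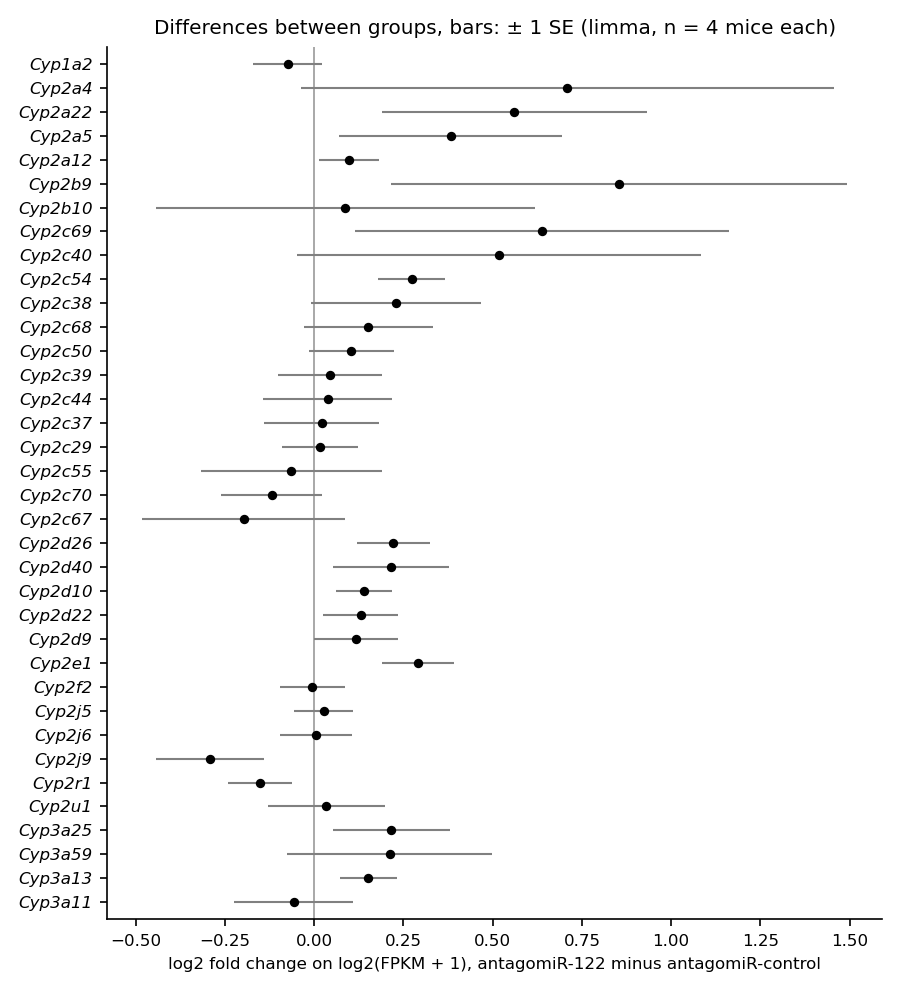
Log2 fold change of each tested gene on the log2(FPKM + 1) scale, antagomiR-122 minus antagomiR-control (x axis), with bars of ± 1 SE from limma, 4 mice per group, and genes grouped by subfamily (y axis). Of the 36 points 28 lie right of 0, and the widest bars belong to Cyp2a4, Cyp2b9, Cyp2c40, Cyp2b10 and Cyp2c69.

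The Cyp1 genes are the classical targets of the aryl hydrocarbon receptor. Cyp1a2, a liver enzyme that oxidises caffeine and aromatic amines (chromosome 9, 57676937 to 57683655), was at 349, 352, 348 and 338 FPKM in control mice 1 to 4 and at 330.2, 301, 397 and 298 FPKM in antagomiR-122 mice 1 to 4. The controls lay close together, at 347 ± 5.98 FPKM (SD, n = 4), while antagomiR-122 mice 1, 2 and 4 were below every control and mouse 3 was above all of them, at 331 ± 45.8 (SD, n = 4). Its log2 fold change was -0.074 ± 0.097 (SE; limma, adjusted p = 0.891). Without antagomiR-122 mouse 3 the groups were apart, the log2 fold change was -0.16 and the unadjusted limma p was under 0.05, as in 5.65% of all genes in that fit. Cyp1a1, the most strongly inducible target of the receptor, stayed under 1 FPKM in every mouse, at 0.285, 0.473, 0.449 and 0.182 FPKM in controls and 0.365, 0.341, 0.417 and 0.476 FPKM with antagomiR-122. The groups overlapped (exact two-sided permutation test on mean FPKM, p = 0.514, n = 4 each). Cyp1b1, the third member of the family, was at 0.290 ± 0.0443 and 0.317 ± 0.108 FPKM (SD, n = 4 each).

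Cyp2e1 had the highest level of all and 1 of the 2 smallest p-values. It oxidises ethanol, acetone and paracetamol in pericentral hepatocytes and lies on chromosome 7 from 140763739 to 140774975. FPKM was 2600.1, 2502, 2921 and 2387 in control mice 1 to 4 and 2891, 3335, 3611 and 2927 in antagomiR-122 mice 1 to 4. All but 1 of the control values lay below every antagomiR-122 value: control mouse 3, at 2921 FPKM, was above antagomiR-122 mouse 1. The means were 2603 ± 229 and 3191 ± 345 FPKM (SD, n = 4 each), a ratio of 1.23 and a log2 fold change of 0.29 ± 0.10 (SE; limma, adjusted p = 0.561). An exact two-sided permutation test on the mean FPKM gave p = 0.0571, where 4 mice against 4 reach at smallest 0.0286. The summed level of the 58 genes averaged 10550.1 ± 797 FPKM in the control livers and 11415 ± 661 in the others (SD, n = 4 each, ratio 1.08), with 9543 in control mouse 4 and 12043 in antagomiR-122 mouse 3 at the ends. The other transcripts of the genome share 4.52% of the 50-base stretches of Cyp2e1.

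**Figure D3:**
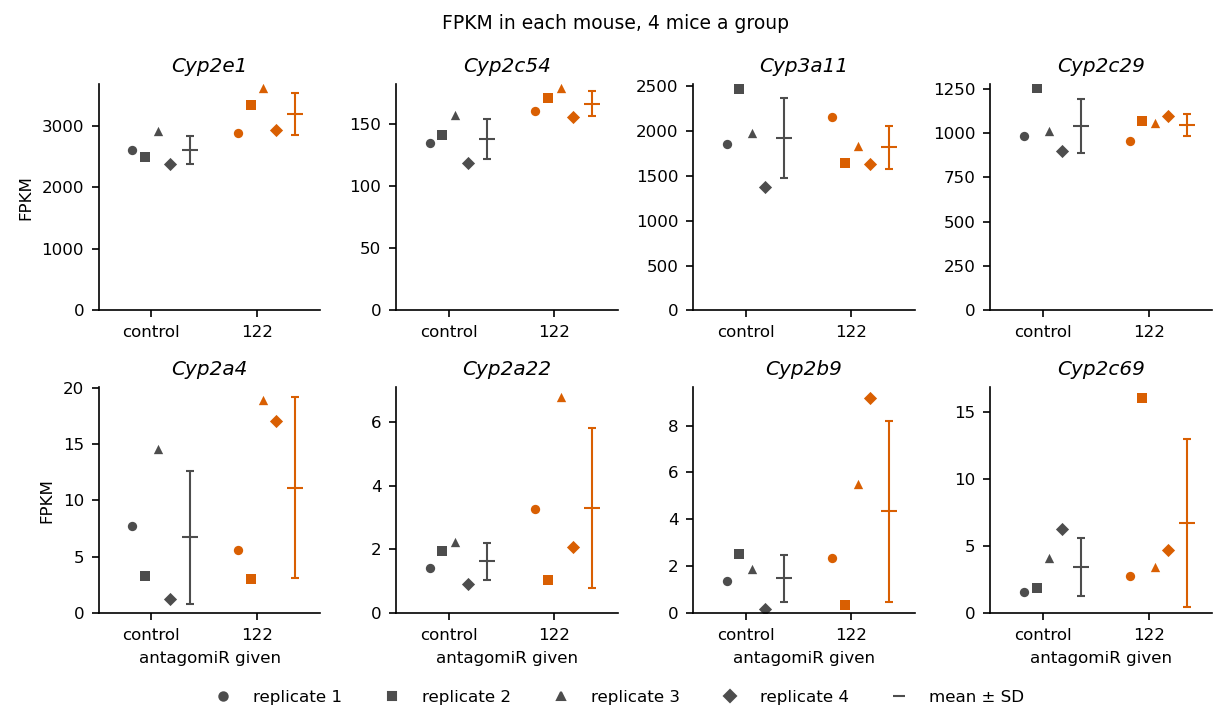
FPKM of 8 genes in each mouse, on linear axes from 0, with a symbol for each replicate number and mean ± SD of the 4 mice per group beside the points. Cyp2e1 and Cyp2c54 (top left) have narrow groups that overlap at a single control mouse, Cyp3a11 and Cyp2c29 have overlapping groups, and the bottom row holds the 4 genes that the authors' table calls significant, with groups as wide as their levels.

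The Cyp2a genes were all higher in the mean with antagomiR-122, none past the threshold. Cyp2a5, the coumarin and nicotine hydroxylase (chromosome 7, 26835305 to 26843548), was at 223, 291, 273 and 127 FPKM in control mice 1 to 4 and at 372, 194, 382 and 236 FPKM in antagomiR-122 mice 1 to 4. Cyp2a4, a steroid hydroxylase that is higher in female liver (chromosome 7, 26307190 to 26315088), was at 7.76, 3.32, 14.5 and 1.25 FPKM in controls and at 5.56, 3.01, 18.9 and 17.04 FPKM with antagomiR-122. In both genes control mouse 4 and antagomiR-122 mouse 2 were the lowest of their groups, and the groups overlapped over most of their range. The log2 fold changes were 0.38 ± 0.31 for Cyp2a5 and 0.71 ± 0.75 for Cyp2a4 (SE; limma, adjusted p = 0.825 and 0.861). That of Cyp2a5 was 0.12 without control mouse 4 and 0.24 to 0.57 without another mouse. Without control mouse 4 that of Cyp2a4 was 0.24, without antagomiR-122 mouse 2 it was 1.14, and without control mouse 3 it was 1.16.

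Cyp2a4 and Cyp2a5 are near copies, which bears on the lower of them. Of the 50-base stretches of Cyp2a4, 36.1% also occur in Cyp2a5, whose level was far higher, so the values of Cyp2a4 are uncertain where the counting could split reads. Their RefSeq promoter windows (GRCm38.p6, 250 bases before to 50 after the annotated start) were identical in 294 of 299 aligned bases, 98.3%, and are shown because the 2 genes had the same mice low. Capitals mark the letters TATAAA (the box that places the start of transcription), CAAAGTCC (part of the site bound by the hepatocyte factor HNF4) and TGACCT, the reverse complement of the nuclear receptor half-site AGGTCA.
Cyp2a4 promoter, chr7:26306942-26307241, plus strand: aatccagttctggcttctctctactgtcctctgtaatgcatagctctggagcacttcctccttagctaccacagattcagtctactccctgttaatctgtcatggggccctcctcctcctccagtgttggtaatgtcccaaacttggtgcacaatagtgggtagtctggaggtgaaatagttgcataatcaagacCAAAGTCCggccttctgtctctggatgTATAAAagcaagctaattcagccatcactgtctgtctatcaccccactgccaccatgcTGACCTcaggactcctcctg
Cyp2a5 promoter, chr7:26835089-26835388, plus strand: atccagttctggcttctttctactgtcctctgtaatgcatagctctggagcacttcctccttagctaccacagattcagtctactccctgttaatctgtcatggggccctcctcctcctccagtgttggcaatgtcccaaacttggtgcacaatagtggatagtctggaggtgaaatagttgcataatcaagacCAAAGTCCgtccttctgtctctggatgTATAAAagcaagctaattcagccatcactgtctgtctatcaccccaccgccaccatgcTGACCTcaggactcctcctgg

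In Cyp2a4 the TATAAA lies at -28 to -23 from the annotated start and CAAAGTCC at -55 to -48, and in Cyp2a5 they lie at -29 to -24 and -56 to -49. The other pair of Cyp2a genes also resemble each other, with 25.7% of the stretches of Cyp2a22 found in Cyp2a12. Cyp2a12, a testosterone hydroxylase, was at 281, 293, 269 and 288 FPKM in controls and 283, 296, 350.1 and 285 FPKM with antagomiR-122, a log2 fold change of 0.097 ± 0.085. Cyp2a22, named because the authors' table calls it significant, was at 1.42, 1.93, 2.23 and 0.924 FPKM in controls and 3.27, 1.05, 6.79 and 2.06 FPKM with antagomiR-122. Its highest value was in antagomiR-122 mouse 3 and its lowest in control mouse 4, and its log2 fold change was 0.56 ± 0.37 (SE; limma, adjusted p = 0.795). That fold change was 0.22 without antagomiR-122 mouse 3 and 0.86 without antagomiR-122 mouse 2. In the summed Cyp2a level, control mouse 4 was lowest of all at 416 FPKM and antagomiR-122 mouse 3 highest at 758 FPKM, around means of 519.7 ± 75.6 and 614 ± 119.8 FPKM (SD, n = 4 each).

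The Cyp2b genes respond to CAR, and 2 of the 5 were tested. Cyp2b10, the gene most used as a readout of phenobarbital-type induction (chromosome 7, 25897620 to 25926624), was at 9.98, 14.6, 9.66 and 4.72 FPKM in control mice 1 to 4 and at 16.7, 2.65, 12.9 and 13.9 FPKM in antagomiR-122 mice 1 to 4. The lowest and the highest of the 8 values were both in the antagomiR-122 group, and the log2 fold change was 0.086 ± 0.53 (SE; limma, adjusted p = 0.977). It was negative, from -0.19 to -0.036, without control mouse 4 or antagomiR-122 mouse 1, 3 or 4, and it was 0.61 without antagomiR-122 mouse 2. Cyp2b9, a relative that is higher in female liver (chromosome 7, 26173411 to 26210661), was at 1.37, 2.52, 1.88 and 0.158 FPKM in controls and 2.33, 0.339, 5.52 and 9.19 FPKM with antagomiR-122. Control mouse 4 and antagomiR-122 mouse 2 were again the lowest of their groups. The log2 fold change of Cyp2b9 was 0.85 ± 0.64 (SE; limma, adjusted p = 0.80), the largest of the 36. It was 0.42 without antagomiR-122 mouse 4 and 1.40 without antagomiR-122 mouse 2. Cyp2b13, also female-biased, was at 0, 0.0797, 0.0245 and 0 FPKM in controls and 0.10, 0, 0.0210 and 0.0757 FPKM with antagomiR-122, so no difference was detectable at this depth. Cyp2b19, a gene of the skin, was above 0 in 1 control library alone.

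The promoter windows of Cyp2b9 and Cyp2b10 are shown because both genes had the same mice low while their sequences are less alike, with 223 of 289 aligned bases identical (77.2%). Capitals mark AGGTCA in Cyp2b9 and GCGTG, on either strand, in Cyp2b10, the core letters of the site bound by the aryl hydrocarbon receptor. The enhancer through which CAR acts on Cyp2b10 lies outside these windows.
Cyp2b9 promoter, chr7:26173159-26173458, plus strand: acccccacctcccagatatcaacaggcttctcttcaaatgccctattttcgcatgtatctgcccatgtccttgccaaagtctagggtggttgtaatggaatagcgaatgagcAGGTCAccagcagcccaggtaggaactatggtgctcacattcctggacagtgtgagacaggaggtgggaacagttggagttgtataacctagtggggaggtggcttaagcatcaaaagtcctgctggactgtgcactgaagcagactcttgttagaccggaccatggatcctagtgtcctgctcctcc
Cyp2b10 promoter, chr7:25897408-25897707, plus strand: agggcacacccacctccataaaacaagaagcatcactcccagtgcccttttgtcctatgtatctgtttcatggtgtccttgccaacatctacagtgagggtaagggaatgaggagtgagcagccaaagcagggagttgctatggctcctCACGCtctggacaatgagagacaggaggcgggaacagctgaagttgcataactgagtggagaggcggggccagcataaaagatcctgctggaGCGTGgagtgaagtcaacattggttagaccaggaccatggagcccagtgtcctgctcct

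Among the Cyp2c genes, the largest subfamily with 13 of 15 tested, 10 were higher and 3 lower in the mean with antagomiR-122. Cyp2c29, a CAR-responsive pericentral enzyme and the most abundant (chromosome 19, 39269405 to 39330713), was at 986, 1255, 1014 and 901 FPKM in controls and 952, 1069.8, 1059 and 1094 FPKM with antagomiR-122. The antagomiR-122 values lay within the range of the controls, and the log2 fold change was 0.016 ± 0.11 (SE; limma, adjusted p = 0.980). Cyp2c54 (chromosome 19, 40037941 to 40073811) had the smallest p of the 36, at 134, 142, 158 and 119 FPKM in controls and 161, 171, 179 and 156 FPKM with antagomiR-122. Only control mouse 3, at 158 FPKM, was above the lowest antagomiR-122 mouse. Its means were 138 ± 16.1 and 167 ± 10.3 FPKM (SD, n = 4 each), and its log2 fold change was 0.27 ± 0.095 (SE; limma, adjusted p = 0.561; exact two-sided permutation test on mean FPKM, p = 0.0571). Cyp2c54 has 25.7% of its 50-base stretches in common with other genes, most with Cyp2c50, which was at 400.0 ± 32.4 and 433 ± 67.6 FPKM (SD, n = 4 each; log2 fold change 0.10). Cyp2c55, which both CAR and PXR induce, was at 7.31, 12.6, 6.88 and 5.12 FPKM in controls and 8.15, 6.53, 10.02 and 5.02 FPKM with antagomiR-122, with overlapping groups and a log2 fold change of -0.064 ± 0.25 (SE). That sign turned to 0.16 without control mouse 2 and to 0.086 without antagomiR-122 mouse 4.

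Cyp2c40 and Cyp2c69, 2 neighbouring female-biased copies, went together from mouse to mouse. Cyp2c40 (chromosome 19, 39767071 to 39812814) was at 9.22, 13.5, 22.4 and 36.6 FPKM in controls and 15.5, 72.7, 21.03 and 19.4 FPKM with antagomiR-122. Cyp2c69 (chromosome 19, 39842660 to 39886769) was at 1.61, 1.88, 4.10 and 6.24 FPKM in controls and 2.76, 16.1, 3.47 and 4.68 FPKM with antagomiR-122. In both genes antagomiR-122 mouse 2 was far above all others and control mouse 4 came next, the reverse of Cyp2a4 and Cyp2b9 in the same 2 livers. The log2 fold changes were 0.52 ± 0.57 for Cyp2c40 and 0.64 ± 0.52 for Cyp2c69 (SE; limma, adjusted p = 0.868 and 0.825), and 0.038 and 0.16 without antagomiR-122 mouse 2. The 2 genes are not independent measurements, since 41.0% of the 50-base stretches of Cyp2c40 and 46.3% of those of Cyp2c69 are common to both, and their reads may have been divided between them. Cyp2c67 and Cyp2c68, which share 40.0% and 35.6% of theirs with Cyp2c40, were at 129 ± 26.5 and 118 ± 51.1 FPKM and at 89.7 ± 12.6 and 102 ± 30.5 FPKM (SD, n = 4 each).

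The promoter windows of this pair are shown because the same mouse was highest in both. They were identical in 267 of 270 aligned bases, 98.9%, over windows offset by the annotated starts, and capitals again mark TATAAA and CAAAGTCC. TATAAA lies after the annotated start in both, at 41 to 46 and at 11 to 16 bases from it.
Cyp2c40 promoter, chr19:39812765-39813064, minus strand: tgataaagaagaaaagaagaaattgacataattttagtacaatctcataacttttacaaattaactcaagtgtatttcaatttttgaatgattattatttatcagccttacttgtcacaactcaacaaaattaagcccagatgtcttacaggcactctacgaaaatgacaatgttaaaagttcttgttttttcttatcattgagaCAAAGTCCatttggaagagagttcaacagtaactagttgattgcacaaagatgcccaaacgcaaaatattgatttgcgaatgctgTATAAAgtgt
Cyp2c69 promoter, chr19:39886720-39887019, minus strand: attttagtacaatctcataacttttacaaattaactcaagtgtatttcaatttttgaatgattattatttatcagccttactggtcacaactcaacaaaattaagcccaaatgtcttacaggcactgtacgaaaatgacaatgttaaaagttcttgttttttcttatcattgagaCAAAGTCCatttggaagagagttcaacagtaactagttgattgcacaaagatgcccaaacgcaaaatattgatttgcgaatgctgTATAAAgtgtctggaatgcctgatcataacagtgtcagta

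The remaining Cyp2c genes showed no difference past the threshold. Cyp2c70, which makes the muricholic acids of mouse bile, was at 286 ± 46.6 and 263 ± 43.4 FPKM (SD, n = 4 each; log2 fold change -0.12). Cyp2c44, an epoxygenase of arachidonic acid, was at 145 ± 4.05 and 154 ± 44.2 FPKM, Cyp2c37 at 127 ± 24.2 and 129 ± 27.3 FPKM, and Cyp2c38 at 15.6 ± 5.81 and 17.7 ± 3.10 FPKM. In sum the Cyp2c genes were at 2402 ± 133 and 2474 ± 286 FPKM (SD, n = 4 each).

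All 5 tested Cyp2d genes were slightly higher in the mean with antagomiR-122, with log2 fold changes from 0.12 to 0.22. Cyp2d9, a testosterone hydroxylase that is higher in male liver (chromosome 15, 82452377 to 82456827), was at 611, 648, 522 and 655 FPKM in control mice 1 to 4 and at 686, 759, 668 and 539 FPKM in antagomiR-122 mice 1 to 4. Of the antagomiR-122 mice 3 were above every control and mouse 4 was below all but 1 of them, which gave a log2 fold change of 0.12 ± 0.12 (SE; limma, adjusted p = 0.852). Cyp2d26 was at 374 ± 17.3 and 438 ± 55.9 FPKM (log2 fold change 0.22), Cyp2d10 at 269 ± 15.1 and 297 ± 22.1 FPKM (0.14), Cyp2d22 at 76.6 ± 9.61 and 83.7 ± 7.34 FPKM (0.13), and Cyp2d40 at 65.1 ± 15.3 and 75.0 ± 11.6 FPKM (0.21; SD, n = 4 each). The summed Cyp2d level was 1395 ± 88.2 and 1557 ± 124 FPKM (SD, n = 4 each). Copies in this cluster share sequence too, with 36.7% of the 50-base stretches of Cyp2d10 and 29.3% of those of Cyp2d9 found in other genes.

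Cyp3a11, the main target of PXR in mouse liver (chromosome 5, 145854426 to 145879964), was at 1858, 2462, 1982 and 1373 FPKM in control mice 1 to 4 and at 2149, 1647, 1833 and 1633 FPKM in antagomiR-122 mice 1 to 4. The lowest and the highest of the 8 mice were both controls, and the log2 fold change was -0.058 ± 0.17 (SE; limma, adjusted p = 0.956), turning to 0.072 without control mouse 2. Cyp3a13, also made in the intestine (chromosome 5, 137892932 to 137921619), was at 76.9, 71.3, 79.9 and 75.6 FPKM in controls and 83.7, 81.1, 95.3 and 78.3 FPKM with antagomiR-122. Only control mouse 3 was above the lowest antagomiR-122 mouse, and the log2 fold change was 0.15 ± 0.080 (SE; limma, adjusted p = 0.726). Cyp3a25 was at 292 ± 55.6 and 338 ± 60.3 FPKM, and Cyp3a59, which has 24.7% of its 50-base stretches in common with it, at 17.8 ± 6.63 and 20.4 ± 5.52 FPKM (SD, n = 4 each). The female-biased Cyp3a44 and Cyp3a16 stayed under 1 FPKM, at 0.352 ± 0.0976 and 0.378 ± 0.0522 FPKM and at 0.123 ± 0.0370 and 0.0991 ± 0.0674 FPKM (SD, n = 4 each).

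Cyp2f, Cyp2j, Cyp2r and Cyp2u had 1 to 3 tested genes each, with 0 past the threshold, and Cyp2g, Cyp2s, Cyp2t and Cyp2w had 0 tested. Cyp2f2, which activates naphthalene and lies in periportal hepatocytes and airway cells (chromosome 7, 27119909 to 27133660), was at 648, 669, 581 and 626 FPKM in controls and 586, 731, 609 and 596 FPKM with antagomiR-122. Both groups averaged 631 FPKM, with a log2 fold change of -0.0051 ± 0.091 (SE; limma, adjusted p = 0.992). Cyp2j5, an arachidonic acid epoxygenase, was at 267, 307, 301 and 292 FPKM in controls and 269, 319, 289 and 311 FPKM with antagomiR-122, nearly the same range in both groups. Its relative Cyp2j9 had the lowest log2 fold change of the 36, -0.29 ± 0.15 (SE; limma, adjusted p = 0.726), from 3.61 ± 0.507 and 2.80 ± 0.770 FPKM (SD, n = 4 each). Cyp2r1, the main vitamin D hydroxylase of the liver, was at 12.4, 12.3, 13.9 and 14.4 FPKM in controls and 11.1, 12.8, 10.8 and 12.7 FPKM with antagomiR-122, with 2 of the antagomiR-122 mice below every control (log2 fold change -0.15 ± 0.090). Cyp2u1, a fatty acid hydroxylase, was at 3.43, 3.04, 2.19 and 2.85 FPKM in controls and 2.22, 3.51, 2.33 and 3.98 FPKM with antagomiR-122, with overlapping groups (log2 fold change 0.034 ± 0.16).

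The spread between mice was wider in these families than in the liver transcriptome at large. It was wider still in P450s of other families, where 22 tested genes had a median coefficient of variation of 28.2%. The coefficient of variation over the 8 mice had a median of 18.7% in the 36 genes and 13.5% in all genes tested, and it exceeded 30% in 10 of the 36 (27.8%) against 10.2% of all. Among high genes the difference was smaller: in the 18 members above 100 FPKM it ran from 6.47% to 33.1% with a median of 12.8%, against 9.94% in the 775 genes above 100 FPKM. The steadiest of the 18 was Cyp2j5 and the most variable Cyp2a5.

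Many of the lowest and highest values fell in the same few livers. Control mouse 4 held the lowest of the 8 values in 12 of the 36 genes (33.3%, against 9.76% of all genes tested), and antagomiR-122 mice 2 and 3 held the highest value in 11 and 10 (30.6% and 27.8%, against 19.5% and 17.1%). Control mouse 4 and antagomiR-122 mouse 2, a pair singled out after their values were seen, were each the lowest of their own group in 8 genes: Cyp2a4, Cyp2a5, Cyp2a22, Cyp2b9, Cyp2b10, Cyp2c38, Cyp2j6 and Cyp3a59. The same 2 mice were each the highest of their group in 8 others: Cyp2c40, Cyp2c44, Cyp2c67, Cyp2c69, Cyp2d9, Cyp2d10, Cyp2d26 and Cyp2r1. Each of these counts is 22.2% of the 36, against 10.6% of all genes tested for the lowest and 14.5% for the highest. Several of the genes counted share sequence, such as Cyp2a4 with Cyp2a5, and Cyp2c40 with Cyp2c67 and Cyp2c69. They are therefore not separate observations. Since 1 mouse of the pair is from each group, this split crosses the treatment. No label separates the 2 livers from the rest, and no cause was tested.

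**Figure D4:**
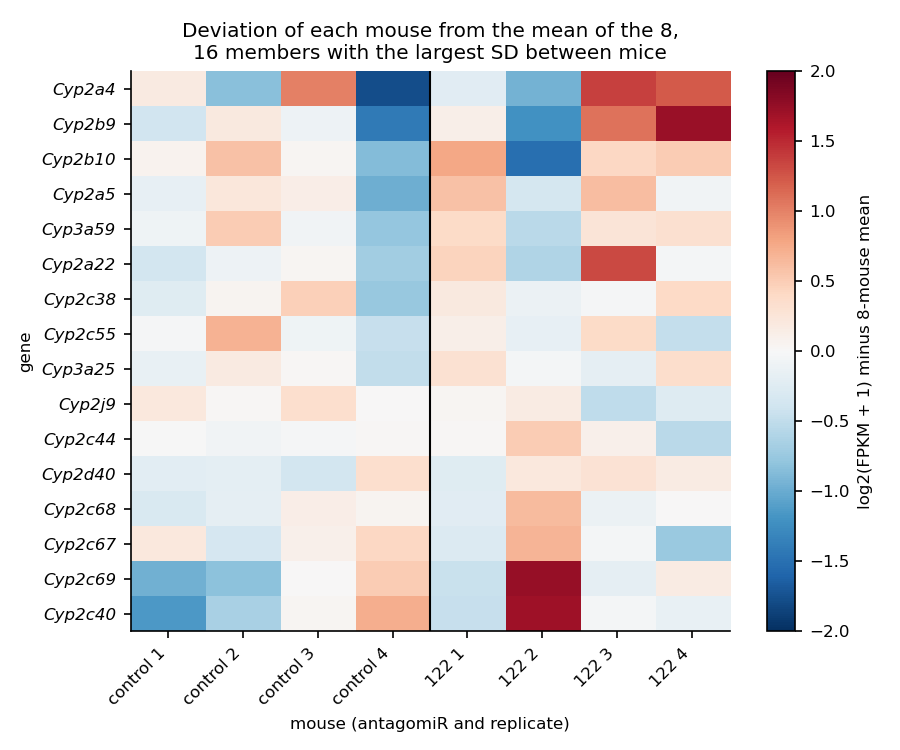
Deviation of each mouse (columns, 4 antagomiR-control left and 4 antagomiR-122 right of the line) from the 8-mouse mean of log2(FPKM + 1), as colour from -2 to 2, for the 16 tested genes with the largest SD between mice (rows). Rows are ordered by the summed deviation of control mouse 4 and antagomiR-122 mouse 2, a pair chosen after their values were seen. The order itself therefore makes a gradient in those columns. The columns of control mouse 4 and antagomiR-122 mouse 2 are blue for Cyp2a4, Cyp2b9, Cyp2b10, Cyp2a5, Cyp3a59 and Cyp2a22 and red for Cyp2c69 and Cyp2c40, while antagomiR-122 mouse 3 is red for Cyp2a4, Cyp2b9, Cyp2a5 and Cyp2a22.

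Sex-biased and zonated members were compared as lists. Of 9 listed female-biased genes 6 reached the filter (Cyp2a4, Cyp2b9, Cyp2b10, Cyp2c39, Cyp2c40 and Cyp2c69). All 6 had a higher mean with antagomiR-122, with a median log2 fold change of 0.58 and a range of 0.044 to 0.85. Higher means were also found in 77.8% of all tested members and in 53.0% of all genes tested. Of the 6, 0 passed the threshold or an unadjusted limma p under 0.05. Cyp2c40 and Cyp2c69 share sequence, as given above, and are not separate observations. Without antagomiR-122 mouse 2 their log2 fold changes were 0.038 and 0.16. Under the filter, Cyp3a16 had a lower mean with antagomiR-122, while Cyp2b13 and Cyp3a44 had higher ones. The direction rested on single mice in Cyp2b10, as given above, and in Cyp2c39, which turned to -0.038 without control mouse 1 and to -0.060 without antagomiR-122 mouse 4. The 4 tested male-biased genes (Cyp2d9, Cyp2f2, Cyp2j5 and Cyp2u1) had a median of 0.030, with 3 higher and 1 lower. The 7 pericentral genes (Cyp1a2, Cyp2a5, Cyp2c29, Cyp2c37, Cyp2c50, Cyp2e1 and Cyp3a11) had a median of 0.020, with 5 higher and 2 lower. Cyp2e1 was the single one of the 7 with an unadjusted limma p under 0.05, against 7.44% of all genes tested. Without control mouse 4 its unadjusted p was no longer under 0.05. P450s of the other families, such as those of bile acid and steroid synthesis, went evenly both ways: 10 of 22 tested genes were higher and 12 lower, with a median of -0.018 and a median coefficient of variation of 28.2%.

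The authors' own Cuffdiff test called more of these genes. Of the 58 genes the authors' deposited table tests 40 and calls 4 significant, all higher with antagomiR-122: Cyp2a4, Cyp2a22, Cyp2b9 and Cyp2c69. That is 10% of the 40, against 1.42% of the 13259 genes tested in the authors' deposited table in either direction and 0.558% in the higher direction. Each of the 4 had p = 5e-05 and q = 0.00526 in the authors' deposited table, which gives log2 fold changes of 0.73, 1.02, 1.55 and 0.96 in that order, without a pseudocount. Their per-mouse values, given above, overlapped between the groups in every case, and their coefficients of variation over the 8 mice were 77.5%, 77.3%, 104% and 91.8%. Cyp2c40, close to Cyp2c69 in sequence and in its mice, had p = 0.00935 and q = 0.302 in the authors' deposited table. Cyp2e1 was not called there, and Cyp2c54 had p = 0.0339 and q = 0.596 in the authors' deposited table. Cyp2d34, under the filter, had the next smallest q after the 4, 0.0890 in the authors' deposited table. It was at 0.538, 0.887, 0.718 and 0.225 FPKM in controls and at 0.285, 0.279, 0.237 and 0.235 FPKM with antagomiR-122, all above 0.225 yet below the other 3 controls (exact two-sided permutation test on mean FPKM, p = 0.143, n = 4 each).

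The sensors and cofactors that act on these genes were read from the same fit. None passed limma's threshold. The authors' deposited table calls Cebpa significant as higher (q = 0.00526), Tef as higher (q = 0.0136), and Bcl6, Nfil3 and Gsta1 as lower (q = 0.00526 each). Bcl6, a transcriptional repressor, was named after its values were seen, and its log2 fold change was -0.57 (limma, adjusted p = 0.717). Gsta1, a glutathione transferase, had a log2 fold change of -0.73 (limma, adjusted p = 0.797). Of 20 tested regulators 11 were higher and 9 lower (median log2 fold change 0.0054). At an unadjusted limma p under 0.05 there were 4 of the 20, against 7.44% of all genes, and 2 had groups apart, against 4.52%. Nr1i3, which encodes CAR, was at 46.1, 42.5, 40.3 and 41.8 FPKM in control mice 1 to 4 and at 54.2, 49.1, 56.0 and 51.5 FPKM in antagomiR-122 mice 1 to 4. Its groups did not overlap, and its log2 fold change was 0.30 ± 0.074 (SE; limma, adjusted p = 0.378). Cebpa, a liver transcription factor, was higher in every antagomiR-122 mouse than in any control, at 63.2 ± 9.52 and 95.5 ± 9.07 FPKM (SD, n = 4 each; log2 fold change 0.60 ± 0.11; limma, adjusted p = 0.288). Its partner Cebpb was lower, at 43.4 ± 6.54 and 30.4 ± 5.65 FPKM (log2 fold change -0.50 ± 0.14; limma, adjusted p = 0.452), with overlapping groups. Ahr, the aryl hydrocarbon receptor, was at 10.8 ± 1.26 and 8.54 ± 1.58 FPKM (log2 fold change -0.31 ± 0.13; limma, adjusted p = 0.621), its groups overlapping through antagomiR-122 mouse 1. Nr1i2, which encodes PXR, Rxra, the partner of both receptors, Hnf4a and Arnt, the partner of Ahr, had log2 fold changes of 0.11, 0.13, 0.0093 and -0.20.

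**Figure D5:**
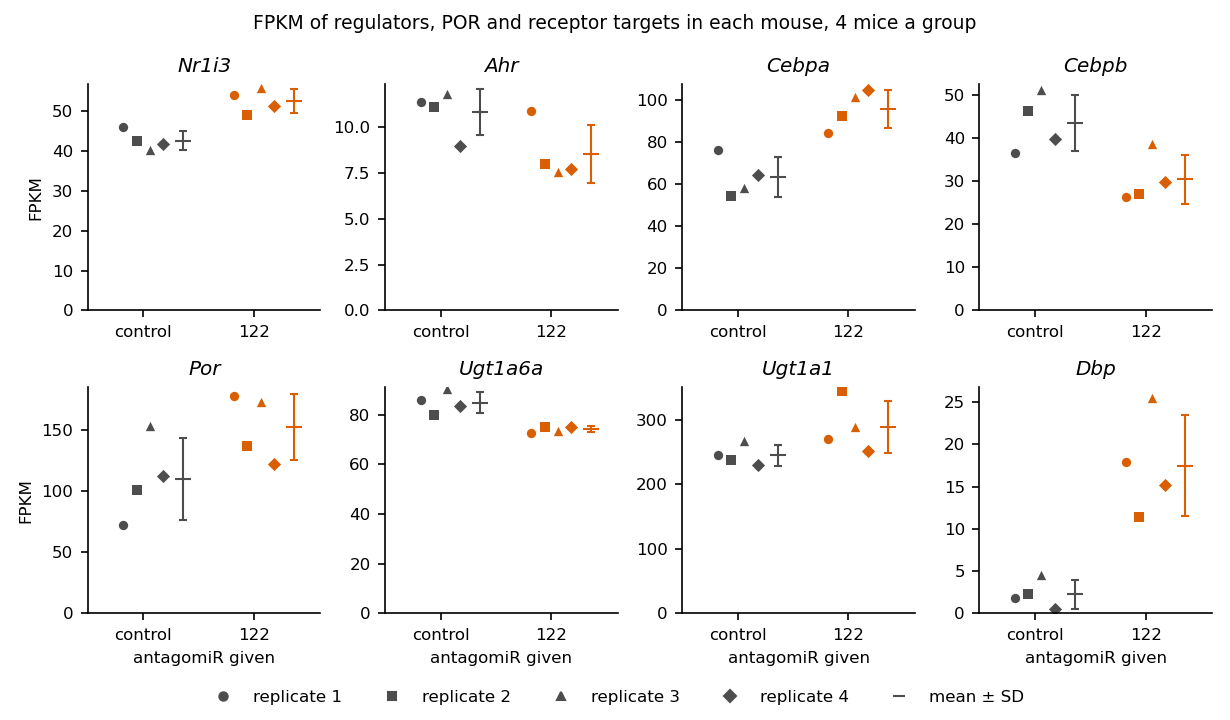
FPKM of 8 regulators, cofactors and receptor targets in each mouse, on linear axes from 0, with a symbol for each replicate number and mean ± SD of the 4 mice per group beside the points. The groups are apart in Nr1i3, Cebpa and Dbp (higher with antagomiR-122) and in Ugt1a6a (lower), and overlap in Ahr, Cebpb, Por and Ugt1a1. All 8 genes shown had an unadjusted limma p under 0.05, so they do not stand for their lists. Groups were apart in 4.52% of all genes tested.

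Electron supply was represented by 16 genes, of which 9 were higher and 7 lower. Por, the reductase that feeds every microsomal P450, was at 72.4, 101, 153 and 112 FPKM in controls and 178, 137, 173 and 121.7 FPKM with antagomiR-122, a log2 fold change of 0.51 ± 0.21 (SE; limma, adjusted p = 0.658). Control mouse 3 lay above 2 of the antagomiR-122 mice. Cyb5a, cytochrome b5, had a log2 fold change of 0.18, while Cyb5b and Cyb5r3 of the same list had -0.18 and -0.078. Alas1, the first enzyme of haem synthesis, had a log2 fold change of -0.38, which was 0.027 without antagomiR-122 mouse 4. Of the other targets of the aryl hydrocarbon receptor, Ugt1a6a, a glucuronosyltransferase, was at 85.9, 80.1, 90.3 and 83.6 FPKM in controls and 72.8, 75.3, 73.4 and 75.0 FPKM with antagomiR-122. All its antagomiR-122 values were below all controls (log2 fold change -0.19 ± 0.065; limma, adjusted p = 0.552), and groups were apart in 4.52% of all genes tested. In that list of 5 genes 1 of the 4 tested was higher (Nqo1, 0.32) and 3 lower, and Aldh3a1 was listed at 0. Of 9 tested targets of CAR and PXR outside the P450s, 6 were higher and 3 lower, and their median was 0.024. Ugt1a1, the bilirubin glucuronosyltransferase, had the single unadjusted p under 0.05 among the 9, against 7.44% of all genes tested. Its log2 fold change was 0.23 ± 0.10 (SE; limma, adjusted p = 0.670), with overlapping groups. Abcc3, Gstm1 and Slco1a4 had log2 fold changes of 0.20, -0.11 and 0.10. Ugt1a6a and Ugt1a1 are alternative first exons of 1 locus, so their values depend on how reads of the common exons were divided.

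The PAR bZIP factors are circadian activators of detoxification genes in mouse liver, among them several of the P450s here. Dbp was at 1.76, 2.28, 4.56 and 0.430 FPKM in controls and 17.9, 11.3, 25.5 and 15.1 FPKM with antagomiR-122, with no overlap, a log2 fold change of 2.61 ± 0.40 (SE; limma, adjusted p = 0.251). Groups were apart in 4.52% of all genes tested. Tef was at 20.2 ± 7.94 and 39.3 ± 7.28 FPKM (log2 fold change 0.99 ± 0.27; limma, adjusted p = 0.452), and Hlf and the opposing repressor Nfil3 had log2 fold changes of -0.060 and -0.66. The D-box letters TTANGTAA, which these factors bind, were found in the promoter window of 1 of the 34 windows of tested P450s (Cyp2c38), against 2.32% of all 32851 windows.

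Promoter letters were counted in the 34 RefSeq windows of 32 of the 36 tested genes, on both strands, as a description. TATAAA was in 20 of the 34 (58.8%) against 13.6% of all windows, and CAAAGTCC in 8 (23.5%) against 1.42%: Cyp2a4, Cyp2a5, Cyp2c40, Cyp2c67, Cyp2c68, Cyp2c69, Cyp2c70 and Cyp3a11. AGGTCA was in 13 of the 34 against 16.3% of all windows, GCGTG in 4 against 32.4%, and TTCNNNGAA, the letters bound by STAT5, in 0 against 8.30%. Near copies share their promoters, as the pairs printed above show, so these windows are not separate observations.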

How the data were processed

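Liver RNA of 8 mice, 1 library each, was sequenced with standard Illumina library protocols, per the labels. The submitters' processing notes name TopHat2 2.0.13 with GRCm38, bcl2fastq 2.15.0.4, Cufflinks 2.2.1 with Cuffdiff, and cutadapt 1.7.1. They give neither annotation release, read length nor strand setting. The deposited tables hold FPKM for every mouse and group, the authors' log2 fold change, and per gene a q-value, a p-value and the authors' test statistic, a score. The fold change column of the table of all genes holds sizes beyond 100, so it was handled as a score and read only for genes the authors tested.

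Since FPKM are no counts, count models were not used. The test was limma 3.58.1 (R 4.3.3), two-sided with trend and robust variances, on log2(FPKM + 1) of the 11131 genes whose 8-library mean reached 1 FPKM, with Benjamini-Hochberg adjustment over all of them and a threshold of 0.05. Members under the filter were compared by exact two-sided permutation tests in Python 3.11.15 with scipy 1.17.1. Exact zeros in FPKM can be failed estimates. Sums and lists got no test. Relative depth was read from the spacing of values under 0.3 FPKM in genes with transcripts of at least 3000 bases. Of 2416 such values 53.7% came out whole, to a tolerance of 0.1, when each library had its own depth, against 21.1% with equal depths. The depth is therefore approximate, and absolute depth is unknown.

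Members were matched to GENCODE M21 transcripts by gene ID (58 of 58), and promoters were taken from RefSeq by symbol (50 of 58 matched). Symbols and gene coordinates are those deposited by the authors. The scripts were tested on simulated data. Alternatives were a pseudocount of 0.1, no filter or a filter of 5 FPKM, median-ratio scaling, limma without trend, a replicate block, and each mouse left out in turn.

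The members and all lists were chosen with earlier results of these data known. Values per mouse are given for the highest member of each subfamily reaching the filter, members with an unadjusted p under 0.05 or with groups apart, and textbook markers (Cyp1a1, Cyp1a2, Cyp2a4, Cyp2a5, Cyp2b9, Cyp2b10, Cyp2b13, Cyp2c29, Cyp2c55, Cyp2d9, Cyp2e1, Cyp2f2, Cyp3a11 and Cyp3a13). From each list of other genes, those with an unadjusted p under 0.05 are named, with up to 4 others. Cyp2a22, Cyp2c40, Cyp2c69 and Cyp2d34 were given per mouse, and Bcl6 named, after their values were seen.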

Additional observations from a re-analysis of the deposited data

Results flagged for a closer look

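In groups of 4 mice, a mouse was picked out when its gap to the nearest other value was a larger share of the group's range than Dixon's critical value for 4 samples. This was checked in 118 groups of 4 and picked out 8, where chance gives about 1 in 20, that is 5.9. Among the P450s, Cyp2c40 was 72.7 FPKM in antagomiR-122 mouse 2 against 15.5 to 21.03 in the others of the group, and its near copy Cyp2c69 was 16.1 against 2.76 to 4.68 in the same mouse. Cyp2f2 was also highest there, at 731 FPKM against 586 to 609. Cyp2d10 was 292 FPKM in control mouse 4 against 260.1 to 265 in the other controls. Among the regulators and receptor targets, Ahr was 10.9 FPKM in antagomiR-122 mouse 1 against 7.56 to 8.02, Arnt was 14.8 in control mouse 3 against 13.5 to 13.6, Nqo1 was 3.69 in antagomiR-122 mouse 2 against 5.99 to 6.32, and Tiparp was 6.76 in antagomiR-122 mouse 4 against 3.39 to 3.94.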

How the results depend on the processing

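Under the 6 settings that kept all mice and the 8 fits without 1 mouse, 0 members passed the adjusted limma threshold, and the smallest adjusted p of a member was 0.465. With no filter, the count at an unadjusted p under 0.05 was 4 in place of 2 (Cyp2d34 and Cyp2t4 were added, log2 fold changes -0.32 and -0.075) and the median was 0.037. With the replicate number as a block, 0 members passed and 2 had an unadjusted p under 0.05, as without it. Correlations of deviations between same-numbered mice were 0.128, -0.238, -0.0611 and -0.184, positive in replicate 1 alone, so the numbers were not taken to pair the mice. Leaving out 1 mouse gave 1 to 5 members at an unadjusted p under 0.05 (5.43% to 8.77% of all genes), 0 to 3 with groups apart (6.34% to 9.29% of all genes), a median of 0.061 to 0.13 and a summed ratio of 1.05 to 1.11. The direction stayed the same in 22 members and turned in 14 without some mouse, all with a log2 fold change of at most 0.21 in size. Their ranges were -0.19 to 0.61 in Cyp2b10, -0.049 to 0.11 in Cyp2c29, -0.11 to 0.14 in Cyp2c37, -0.060 to 0.13 in Cyp2c39, -0.12 to 0.23 in Cyp2c44, -0.23 to 0.16 in Cyp2c55, -0.46 to 0.019 in Cyp2c67, -0.036 to 0.25 in Cyp2c68, -0.078 to 0.028 in Cyp2f2, -0.016 to 0.073 in Cyp2j5, -0.059 to 0.069 in Cyp2j6, -0.079 to 0.13 in Cyp2u1, -0.21 to 0.072 in Cyp3a11 and -0.012 to 0.43 in Cyp3a59. Of the other genes, the ranges were -0.61 to 0.027 in Alas1, -0.25 to 0.053 in Gstm1, -0.16 to 0.047 in Hlf, -0.069 to 0.056 in Hnf4a, -0.0021 to 0.18 in Nr1i2 and -0.25 to 0.41 in Slco1a4. The cause was not tested, and each such fit also had fewer mice. Depth and the division of reads among near-identical copies were not tested as sources of these differences.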
